A study of Cricetulus griseus with 4 samples.

Results

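The comparison described here sets CHO-K1 cells given a selective activator of the vitamin D receptor (VDR) against the same cells given the solvent DMSO. It uses 2 of the 4 libraries of the series, 1 per treatment, and covers 11431 of the 20754 genes in the deposited table, those with at least 10 counts and at least 1 CPM in either library. CPM is a gene's count scaled to an effective library size of 1000000. CHO-K1 is an established line from Chinese hamster ovary. Both cultures grew in 6-well plates for 24 hr, then spent 24 hr more in medium that held compactin and lithium mevalonate (50 µM each) and 5% serum depleted of lipids, to which the activator or DMSO had been added. All 4 groups, DMSO included, thus carried compactin, a statin that blocks HMG-CoA reductase, and the remaining libraries held a selective SREBP inhibitor and 25-hydroxyvitamin D3. The labels give neither the dose nor the structure of the compounds. Each group is a single library of 1 line, so no test across conditions was possible and no difference below has a replicate check.

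VDR is a nuclear receptor that binds DNA with a retinoid X receptor partner and, when a vitamin D hormone occupies it, recruits coactivators to its target genes. Its best-known target encodes the mitochondrial hydroxylase Cyp24a1, which breaks down the hormone and so closes a feedback loop. In many cultured cells VDR ligands are also known for effects on proliferation and on the genes of the extracellular matrix. The direction of such effects differs between cell types.

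The libraries held 21353277 counts for DMSO and 23653262 for the VDR activator, so that 1 CPM stood for 21.7 and 24.4 counts. Counts above the lowest levels were therefore high in both, and the lack of replicate cultures, not depth, limits what the differences show. Mitochondrial-encoded mRNAs took 6.81% of the DMSO library (95% Clopper-Pearson interval 6.80 to 6.82) and 5.93% of the VDR activator library (5.92 to 5.94). Of 24 fibroblast and epithelial marker genes with a row, 13 reached 1 CPM in DMSO and 12 under the activator. The epithelial genes Krt8, Krt14, Krt18, Cldn7 and Esrp1 were at 0 counts in both, while Epcam, another epithelial gene, passed the filter on low values. Of 21 markers of other lineages, 7 and 5 reached 1 CPM, with summed levels of 27.9 and 20.1 CPM. The leukocyte markers Ptprc, Cd3e and Adgre1 were at 0 in both, while the myeloid marker Cd68 passed the filter on low values. In these bulk samples, fewer cells of a kind and less RNA per cell cannot be told apart.

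Few genes differed by a large factor. At a limit of 2-fold, a difference of 1 on the log2(CPM + 1) scale, 21 genes (0.184% of those tested) were higher under the activator and 37 (0.324%) were lower, 58 (0.507%) in either direction. At a limit of 1.5-fold, 279 genes (2.44%) were higher and 219 (1.92%) lower. On the authors' FPKM values these became 287 and 121, which moved the higher share from 56.0% to 70.3%. That setting also changed the filter and the pseudocount to 1 FPKM and tested 10838 genes, so the unit was not the only change. The median difference over all tested genes was 0.01, with 52.1% of them higher and 47.9% lower by any amount. The middle 90% of genes lay between -0.40 and 0.43, and the middle 98% between -0.70 and 0.74. Nearest to the 2-fold limit were Gins1 at 0.985 and Mcm5 at 1.004 on the higher side, and Dusp6 at -0.992 and a probable N-acetyltransferase gene, LOC100767690, at -1.014 on the lower side.

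**Figure D1:**
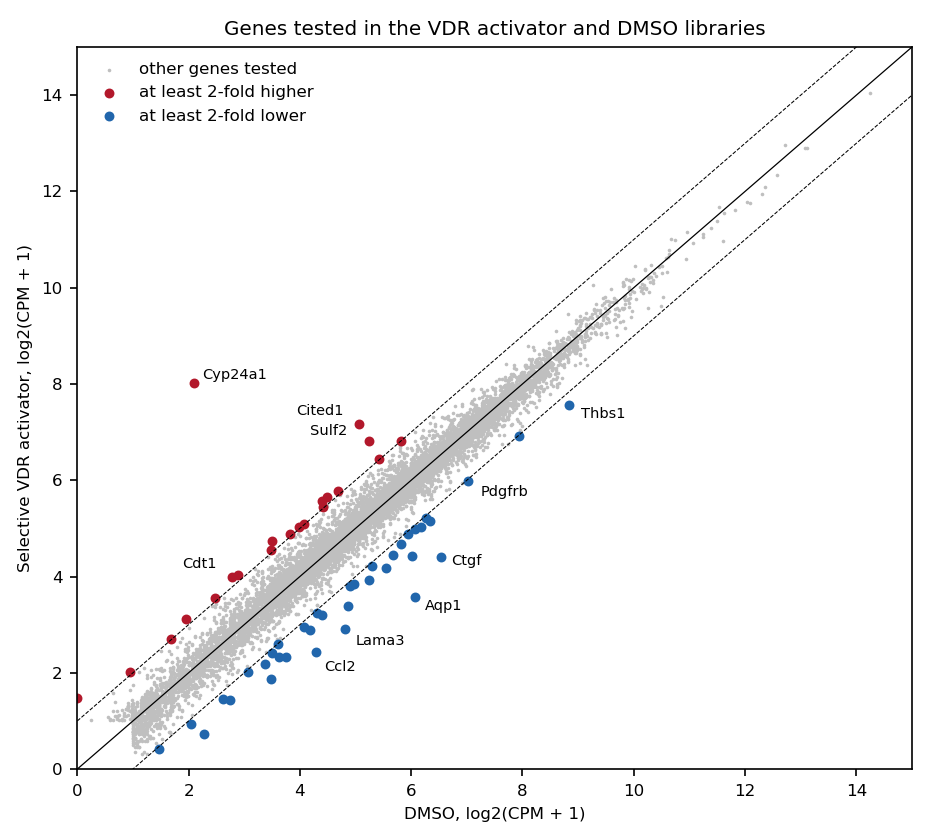
Level of each of the 11431 tested genes in the DMSO library (x axis) and the VDR activator library (y axis), both as log2(CPM + 1), 1 point per gene and 1 library per axis. Red points are the 21 genes at least 2-fold higher under the activator and blue points the 37 at least 2-fold lower, and Cyp24a1 stands alone far above the diagonal.

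Cyp24a1 separated from every other gene. It had 71 counts in DMSO and 6313 under the VDR activator, or 3.27 and 258 CPM. That is a 79.0-fold ratio (95% interval 62.5 to 101, which covers counting error only, as do all intervals below). Scaled for length, its FPKM went from 0.847 to 68.7, and its place among the 11431 tested genes, ordered from the highest FPKM, from 10831 to 1249. It was at 5.99 CPM under the SREBP inhibitor and 185 under 25-hydroxyvitamin D3, so the activator library had the highest level of the 4. The next gene in order of difference under the activator, Cited1, lay at a log2 difference of 2.12 against 5.92 for Cyp24a1.

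The receptor and its partners stayed within 1.5-fold of their DMSO levels. Vdr was at 48.0 CPM in DMSO and 37.4 under the activator, 1.28-fold lower (1.17 to 1.41), and at 38.5 and 42.6 CPM under the SREBP inhibitor and 25-hydroxyvitamin D3, so DMSO had the highest of the 4 levels. Rxra, the retinoid X receptor alpha gene, was at 83.1 and 90.6 CPM, 1.09-fold higher (1.02 to 1.16). In the activator library Rxra had 17.8 FPKM and Vdr 8.78 FPKM, both below the 68.7 FPKM of Cyp24a1. Of 15 tested genes that make, break down or carry vitamin D or partner its receptor, including the coactivators Ncoa1, Ncoa2, Ncoa3 and Med1 and the corepressor Ncor1, 9 were higher and 6 lower, with a median of 0.00 that took either sign with the scaling. Only Cubn, the endocytic receptor cubilin that takes up vitamin D carrier protein in kidney, passed 1.5-fold. It was at 1.38 CPM in DMSO and 0.532 under the activator, levels of few counts (30 and 13).

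Other genes known as VDR targets in various tissues did not follow Cyp24a1. Of 40 VDR targets listed, Cyp24a1 included, 20 were tested, 5 were higher and 15 lower, and the median was -0.10. Apart from Cyp24a1, only Vegfa and Spp1 passed 1.5-fold, in opposite directions. Vegfa, which encodes the main growth factor of blood vessels, was at 34.6 CPM in DMSO, 59.9 under the activator, 65.4 under the SREBP inhibitor and 128 under 25-hydroxyvitamin D3. It was thus 1.73-fold higher under the activator (1.58 to 1.89) and higher still in both other treated libraries. Spp1, the bone matrix protein osteopontin and a classical VDR target in osteoblasts, was at 1.29 CPM in DMSO and 0.286 under the activator, levels of few counts. None of the 13 tested calcium pumps and exchangers passed 1.5-fold, and all 13 were lower under the scaling used (12 of 13 under another), the farthest being Atp2b4, a plasma membrane calcium pump, at -0.29.

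Besides Cyp24a1, 3 genes with a known place in signalling or transport were among the most different on the higher side. Cited1, a coactivator that binds CBP and p300, was at 32.3 CPM in DMSO, 144 under the activator, 25.2 under the SREBP inhibitor and 20.1 under 25-hydroxyvitamin D3. It was 4.45-fold above DMSO (4.11 to 4.84) in the activator library, and both other treated libraries lay below DMSO. Its relative Cited2, which also binds CBP and p300, was lower, at 75.9 CPM in DMSO and 36.2 under the activator, 2.10-fold lower (1.93 to 2.28). Cited2 was at 50.4 CPM under the SREBP inhibitor and 18.6 under 25-hydroxyvitamin D3.

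Sulf2, a secreted sulfatase that trims heparan sulfate chains, was at 36.7 CPM in DMSO, 112 under the activator, 56.7 under the SREBP inhibitor and 75.4 under 25-hydroxyvitamin D3. Its level was highest under the activator, at 3.05 times DMSO (2.82 to 3.30). The other 17 tested genes of heparan sulfate synthesis and editing had no member past 1.5-fold on the higher side. Gpc6, a glypican that carries these chains on the cell surface, was lower, at 135 CPM in DMSO and 84.9 under the activator, and the list's median was -0.09. Slc14a1, a urea transporter, was at 21.6 CPM in DMSO, 49.4 under the activator, 27.6 under the SREBP inhibitor and 76.3 under 25-hydroxyvitamin D3, so here 25-hydroxyvitamin D3 gave the highest level.

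Plekhg4, a guanine nucleotide exchange factor, was at 6.36 CPM in DMSO, 15.3 under the activator, 5.13 under the SREBP inhibitor and 1.18 under 25-hydroxyvitamin D3. Like Cited1, it was above DMSO in the activator library alone. Ankle1, a nuclease with ankyrin repeats, was at 10.2 CPM in DMSO, 22.5 under the activator, 12.8 under the SREBP inhibitor and 20.1 under 25-hydroxyvitamin D3. C3, the central complement component, stood at 0.921 CPM in DMSO and 3.03 under the activator, low levels with a wide interval for the ratio of 3.29 (1.98 to 5.69). Of the 21 genes past 2-fold on the higher side, 12 had their highest level of the 4 libraries under the VDR activator. These genes were picked for a high level in that library, which favours this order in advance, so the count is description only.

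**Figure D2:**
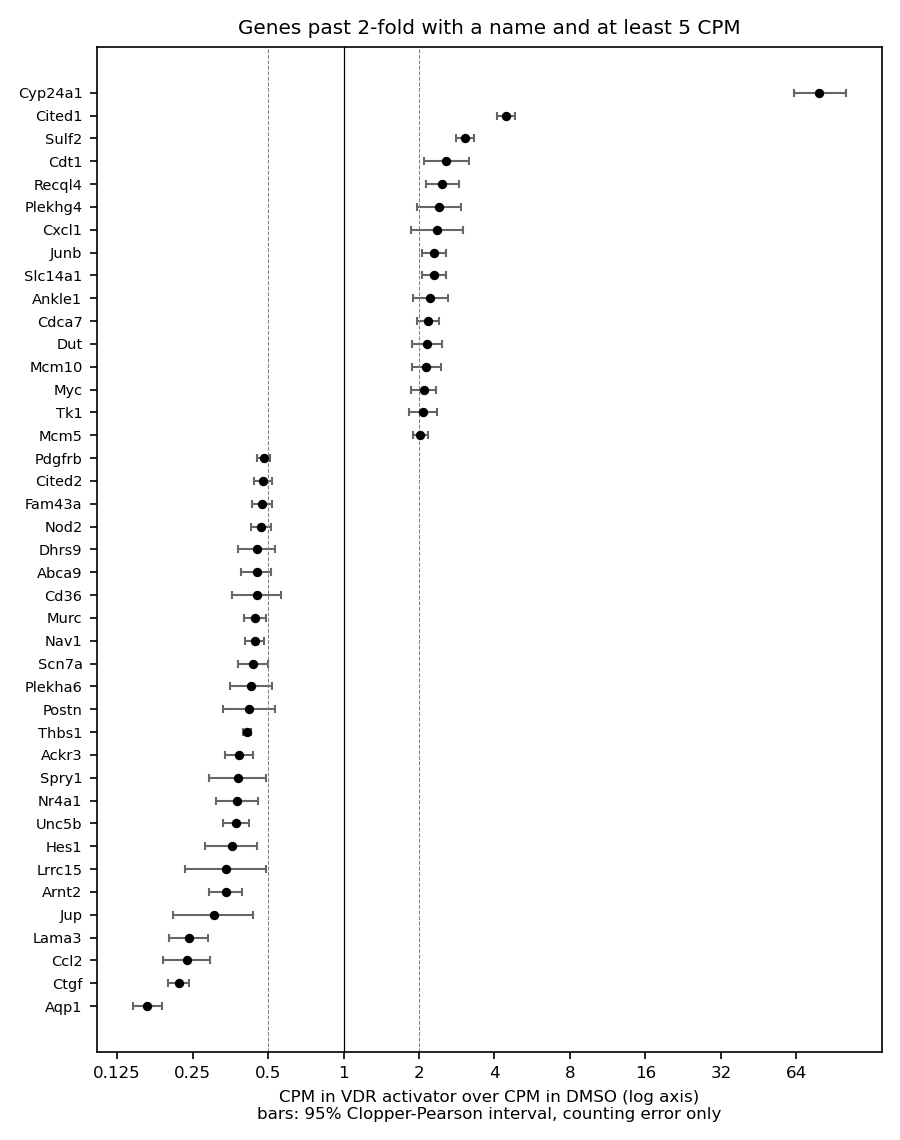
Ratio of CPM in the VDR activator library to CPM in the DMSO library (log axis) for genes past 2-fold that have a name and at least 5 CPM in either library, 1 row per gene. Points are single-library ratios and bars the 95% Clopper-Pearson interval of the counts, which covers counting error only. Cyp24a1 at 79.0 lies apart from Cited1 at 4.45, and Aqp1 and Ctgf lie lowest.

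Among the gene lists, those of the cell cycle held most of the modestly higher genes. Across 8 lists of DNA replication, repair, mitosis and cell cycle control, 252 genes were tested, of which 239 were higher and 13 lower, with a median log2 difference of 0.56. Past the 1.5-fold limit, 119 of the 252 were higher and 0 lower, against 2.44% and 1.92% of all tested genes, and they supplied 42.7% of all the genes past 1.5-fold on the higher side. Split into 3 equal bins of implied gene length over all tested genes, the shortest, middle and longest bins had medians of 0.52, 0.60 and 0.56 for these lists. Over all tested genes the same bins had medians of 0.061, 0.007 and -0.028. Whether more cells were in cycle or each held more of these mRNAs cannot be told apart here.

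Replication starts when origins are licensed, and 27 of 28 tested licensing genes were higher (26 of 28 with another scaling), 13 of them past 1.5-fold, with a median of 0.57. Cdt1, which helps to load the MCM helicase onto origins, was at 5.85 CPM in DMSO, 14.98 under the activator, 10.7 under the SREBP inhibitor and 22.0 under 25-hydroxyvitamin D3, 2.56-fold above DMSO under the activator (2.09 to 3.16). The helicase subunit gene Mcm5 was at 55.2, 112, 72.7 and 141 CPM in the same order of libraries. For both genes DMSO had the lowest level and 25-hydroxyvitamin D3 the highest. Mcm10, which helps to fire the loaded helicase, was at 14.9 CPM in DMSO, 31.8 under the activator, 21.4 under the SREBP inhibitor and 28.2 under 25-hydroxyvitamin D3. Gins1, part of the GINS complex of the active helicase, was at 9.72, 20.2, 14.8 and 20.9 CPM in that order. DMSO was the lowest of the 4 libraries for 24 of the 28 licensing genes. For this and all later counts of order among libraries, the share over all tested genes was not computed.

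The subunits of the origin recognition complex divided within this list. Orc1, whose protein is known to cycle in human cells, had a log2 difference of 0.82 and Orc6 one of 0.49. Orc2, Orc3, Orc4 and Orc5 lay between -0.09 and 0.12. The 6 subunits of the main MCM helicase, Mcm2 to Mcm7, lay between 0.41 for Mcm6 and 1.00 for Mcm5, while Mcm9, a relative that acts in repair, was at 0.05. These subunit families were picked out after their values were seen.

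At the replication fork, 35 of 36 tested genes were higher, 17 past 1.5-fold, with a median of 0.55. Rfc3, a subunit of the clamp loader, was at 8.20 CPM in DMSO, 16.7 under the activator, 11.9 under the SREBP inhibitor and 18.3 under 25-hydroxyvitamin D3. Pold1, the catalytic subunit of DNA polymerase delta, was at 37.3, 70.1, 49.2 and 95.8 CPM in that order. DMSO was lowest in both. Uhrf1, which carries DNA methylation across the fork, was at 73.1 CPM in DMSO, 131 under the activator, 97.6 under the SREBP inhibitor and 113 under 25-hydroxyvitamin D3. Prim1, the primase subunit, was at 10.7, 19.7, 19.8 and 19.4 CPM, so the 3 treated libraries lay together above DMSO. The activator gave the highest of the 4 levels for 15 of the 36 fork genes.

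Nucleotide supply was higher in 24 of 25 tested genes, 9 past 1.5-fold and 2 past 2-fold, with a median of 0.53. Dut, the dUTPase that keeps uracil out of DNA, was at 13.2 CPM in DMSO, 28.5 under the activator, 15.9 under the SREBP inhibitor and 14.2 under 25-hydroxyvitamin D3, 2.15-fold above DMSO (1.87 to 2.48). Tk1, the thymidine kinase of S phase, was at 15.9, 33.1, 19.7 and 21.05 CPM in that order, 2.08-fold above DMSO (1.83 to 2.37). Dut and Tk1 were both highest under the activator, and their levels in the other treated libraries lay much nearer to DMSO. Rrm2, the regulated subunit of ribonucleotide reductase, followed another order, with 23.8 CPM in DMSO, 47.4 under the activator, 42.7 under the SREBP inhibitor and 67.8 under 25-hydroxyvitamin D3. In the whole nucleotide list the activator was highest of the 4 for 5 of 25 genes and below the SREBP inhibitor for 17.

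Genes that package the new DNA and repair it were higher too. Of 17 tested genes of histone supply and chromatin assembly 16 were higher and 7 passed 1.5-fold, with a median of 0.47. H2afx, the histone variant that marks DNA breaks, was at 80.0 CPM in DMSO, 145 under the activator, 93.1 under the SREBP inhibitor and 113 under 25-hydroxyvitamin D3. Chaf1a, the large subunit of a histone chaperone at the fork, was at 34.8, 59.4, 37.9 and 54.5 CPM in that order. Both were highest under the activator. Hells, a chromatin remodeller, was at 27.9 CPM in DMSO and 50.0 under the activator, and its partner Cdca7 at 24.7 and 53.8 CPM, 2.18-fold above DMSO (1.97 to 2.41). Cdca7 reached 94.9 CPM under the SREBP inhibitor and 211 under 25-hydroxyvitamin D3, well above its level under the activator.

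Of 35 tested genes of homologous recombination and the Fanconi pathway, 33 were higher and 18 passed 1.5-fold, with a median of 0.59. Recql4, a RecQ helicase with a part in origin firing and repair, was at 10.3 CPM in DMSO, 25.6 under the activator, 14.3 under the SREBP inhibitor and 24.3 under 25-hydroxyvitamin D3. It was 2.48-fold above DMSO (2.12 to 2.90). Exo1, a nuclease that resects broken ends, was at 5.25, 10.8, 8.06 and 12.2 CPM in that order. Palb2, which ties Brca1 to Brca2, was at 10.96 CPM in DMSO and 20.5 under the activator, and Blm, another RecQ helicase, at 30.4 and 53.5 CPM. Of these 4 genes Recql4 alone was highest under the activator.

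Mitotic genes were higher without exception. All 65 tested genes of the kinetochore, the spindle and mitotic exit, of 66 listed, were higher under each scaling tried, 42 of them past 1.5-fold (36 to 43 over the scalings) and 0 past 2-fold. Their differences ran from 0.22 to 0.91 with a median of 0.63. Kif15, a spindle kinesin, was at 83.1 CPM in DMSO, 157 under the activator, 89.7 under the SREBP inhibitor and 137 under 25-hydroxyvitamin D3, 1.89-fold above DMSO (1.79 to 2.00). Espl1, the separase that cuts cohesin at anaphase, was at 54.5, 101, 54.1 and 84.7 CPM in that order. For Espl1 the SREBP inhibitor library stood at the DMSO level. Aurkb, the kinase of the chromosomal passenger complex, was at 11.3 CPM in DMSO, 21.2 under the activator, 11.9 under the SREBP inhibitor and 19.9 under 25-hydroxyvitamin D3. Kif2c, a kinesin that depolymerizes microtubules at kinetochores, was at 50.3, 91.3, 52.3 and 101 CPM. Of the 65 genes, 63 were higher under the activator than under the SREBP inhibitor, and 18 were higher than under 25-hydroxyvitamin D3. How far these counts differ from those over all tested genes was not tested.

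Cell cycle control genes were mostly higher. Of 24 tested cyclins, cyclin-dependent kinases and inhibitors, 19 were higher and 7 passed 1.5-fold, with a median of 0.30. Ccnb1, the cyclin of mitotic entry, was at 84.9 CPM in DMSO, 139 under the activator, 95.8 under the SREBP inhibitor and 213 under 25-hydroxyvitamin D3. Its kinase partner Cdk1 was at 62.6, 101, 69.0 and 146 CPM in that order. Ccna2, the cyclin of S and G2 phase, was at 98.8 CPM in DMSO and 157 under the activator, and Ccnf, an F-box cyclin that directs protein breakdown, at 44.7 and 69.5 CPM. In all of them DMSO lay below the activator. Wee1 and Pkmyt1, kinases that hold Cdk1 inactive, were also past 1.5-fold, both at 0.61. Ccnd1, the D-type cyclin that answers growth factors, was on the other side with a log2 difference of -0.41, and the inhibitor genes Cdkn1a and Cdkn1b lay at 0.15 and 0.04. These 5 values were chosen after they were seen.

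Of 22 tested regulators of the E2F, RB and DREAM network, which switch these programs on and off, 20 were higher and 6 passed 1.5-fold, with a median of 0.30. Mybl2, which activates mitotic genes, was at 49.4 CPM in DMSO, 90.6 under the activator, 63.9 under the SREBP inhibitor and 168 under 25-hydroxyvitamin D3. E2f8, an atypical E2F repressor, was at 18.6, 33.3, 17.3 and 19.7 CPM in that order. E2f8 was thus highest under the activator, with the other 3 libraries close together. Lin9, a subunit shared by DREAM and the Mybl2 complex, was at 10.3 CPM in DMSO and 17.6 under the activator. Myc, a driver of growth and ribosome production, was at 20.3, 42.4, 83.5 and 172 CPM, lowest in DMSO and highest under 25-hydroxyvitamin D3. A second row described as a myc gene, LOC100758352, went 42.1, 86.1, 167 and 348 CPM, and whether the 2 rows share reads was not tested.

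**Figure D3:**
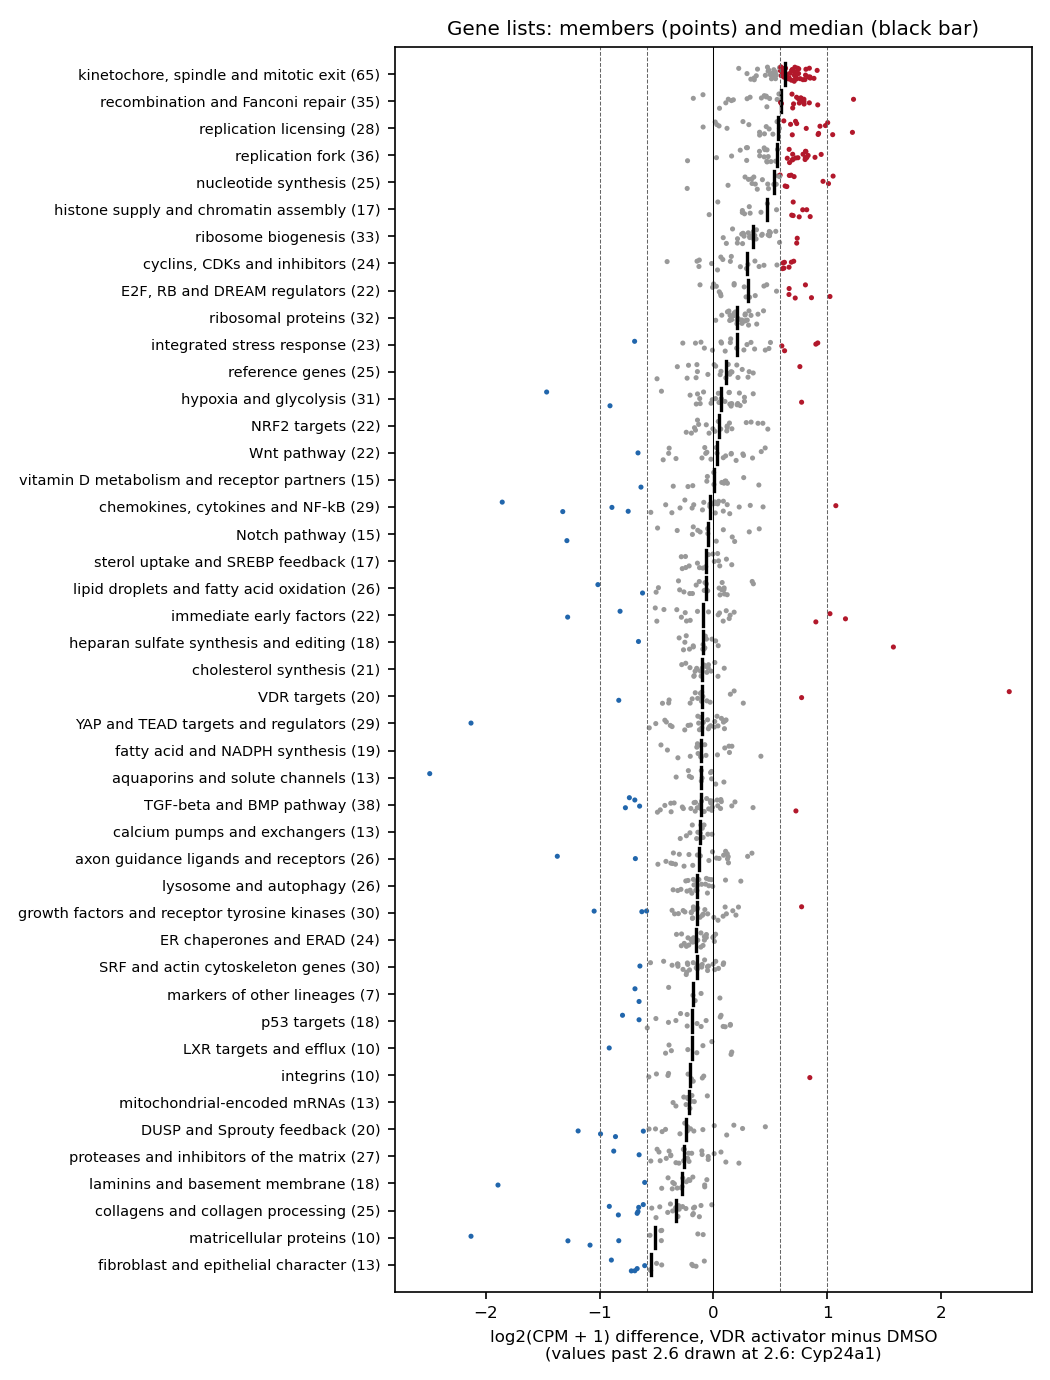
Difference in log2(CPM + 1) between the VDR activator and DMSO libraries for every tested member of the fixed gene lists, 1 point per gene, with the number tested in brackets and the list median as a black bar. Red and blue points are at least 1.5-fold higher and lower, dashed lines mark 1.5-fold and 2-fold, and Cyp24a1 is drawn at the right edge. The lists of replication, repair and mitosis lie at the top with medians of 0.47 to 0.63. Matrix lists and the list of fibroblast and epithelial character lie at the bottom.

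Genes of the extracellular matrix, of adhesion and of fibroblast character were lower as a group. The 6 lists were collagens, laminins, matricellular proteins, matrix proteases, integrins, and fibroblast and epithelial character. The last of them also holds genes outside the matrix, such as Vim, S100a4 and Lgals1, which count toward the totals here. Epcam, with a log2 difference of -0.18, was its only epithelial gene that could be tested. Across the 6 lists 99 genes were tested, of which 94 were lower and 5 higher, with a median of -0.31. Past the 1.5-fold limit, 17 were lower and 1 higher, against 1.92% and 2.44% of all tested genes, and they formed 7.76% of the genes past 1.5-fold on the lower side. The medians in the shortest, middle and longest bins of implied gene length were -0.33, -0.26 and -0.36. Long genes lay slightly lower over the whole table, with 99 genes of the longest bin past 1.5-fold on the lower side against 48 of the shortest.

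Matricellular proteins, which sit in the matrix and signal to cells, held the largest single difference of these lists, that of Ctgf. All 10 tested were lower, 4 past 1.5-fold and 3 past 2-fold, with a median of -0.51. Ctgf, connective tissue growth factor, was at 91.7 CPM in DMSO, 20.2 under the activator, 32.2 under the SREBP inhibitor and 0.638 under 25-hydroxyvitamin D3, 4.55-fold below DMSO under the activator (4.12 to 5.03). Its relative Cyr61, given here for contrast after its value was seen, had a log2 difference of only -0.14. Thbs1, thrombospondin 1, was at 456, 187, 239.8 and 341 CPM in the same order, so the activator gave its lowest level of the 4. Postn, periostin, was at 10.3, 4.34, 8.83 and 1.96 CPM. Ctgf and Postn were both lowest under 25-hydroxyvitamin D3, unlike Thbs1.

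All 25 tested collagens and collagen-processing enzymes were lower under the scaling used (24 of 25 under another), 6 past 1.5-fold, with a median of -0.33. Col3a1, the fibrillar collagen III chain, was at 916 CPM in DMSO, 575 under the activator, 390.5 under the SREBP inhibitor and 92.1 under 25-hydroxyvitamin D3, 1.59-fold below DMSO under the activator (1.56 to 1.63). Col27a1, another fibrillar collagen, was at 47.1, 25.9, 9.48 and 1.67 CPM in that order. In both the activator library lay next below DMSO and 25-hydroxyvitamin D3 lowest. Loxl4, a lysyl oxidase that crosslinks collagen, was at 74.8 CPM in DMSO and 46.9 under the activator. Col5a3 was at 1.89 and 0.532 CPM, near the lowest levels tested. The enzymes that hydroxylate collagen in the cell ranged from -0.11 for Plod2 to -0.47 for P4ha3, values picked after they were seen.

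All 18 tested laminin and basement membrane genes were lower under each scaling, 2 past 1.5-fold, with a median of -0.28. Lama3, a laminin alpha chain of epithelial basement membranes, was at 27.0 CPM in DMSO, 6.55 under the activator, 7.84 under the SREBP inhibitor and 0.638 under 25-hydroxyvitamin D3. It was 4.13-fold below DMSO (3.46 to 4.95), and the SREBP inhibitor library stood near the same level. Fn1, fibronectin, was at 557 CPM in DMSO, 366 under the activator, 636 under the SREBP inhibitor and 373 under 25-hydroxyvitamin D3. For Fn1 the activator and 25-hydroxyvitamin D3 libraries lay together and the SREBP inhibitor above DMSO.

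Of 27 tested proteases and inhibitors of the matrix 23 were lower and 2 passed 1.5-fold, with a median of -0.26. Adam19, a membrane metalloprotease, was at 196 CPM in DMSO, 106 under the activator, 112 under the SREBP inhibitor and 117 under 25-hydroxyvitamin D3. The 3 treated libraries were alike for this gene and all below DMSO. Mmp13, a collagenase, was at 1.15 CPM in DMSO and 0.368 under the activator, too low for a firm ratio. Of 10 tested integrins 9 were lower, none past 1.5-fold. The exception, the platelet integrin gene Itga2b, was at 2.67 CPM in DMSO, 5.61 under the activator, 9.48 under the SREBP inhibitor and 15.995 under 25-hydroxyvitamin D3.

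In the list of fibroblast and epithelial character all 13 tested genes, of which only Epcam is epithelial, were lower under each scaling, 5 past 1.5-fold. Their median was -0.55, and the summed level of the 24 with a row was 6047 CPM in DMSO and 4024 under the activator. Vim, the intermediate filament vimentin, was at 1481 CPM in DMSO, 898 under the activator, 1430.1 under the SREBP inhibitor and 787 under 25-hydroxyvitamin D3. It was 1.65-fold below DMSO (1.62 to 1.68), while the SREBP inhibitor library lay near DMSO. Lgals1, the lectin galectin 1, was at 831, 514, 456 and 64.3 CPM, and S100a4, a calcium-binding protein of motile cells, at 17.3, 8.84, 8.53 and 1.86 CPM. Both followed the order DMSO, activator, SREBP inhibitor, 25-hydroxyvitamin D3 from highest to lowest.

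**Figure D4:**
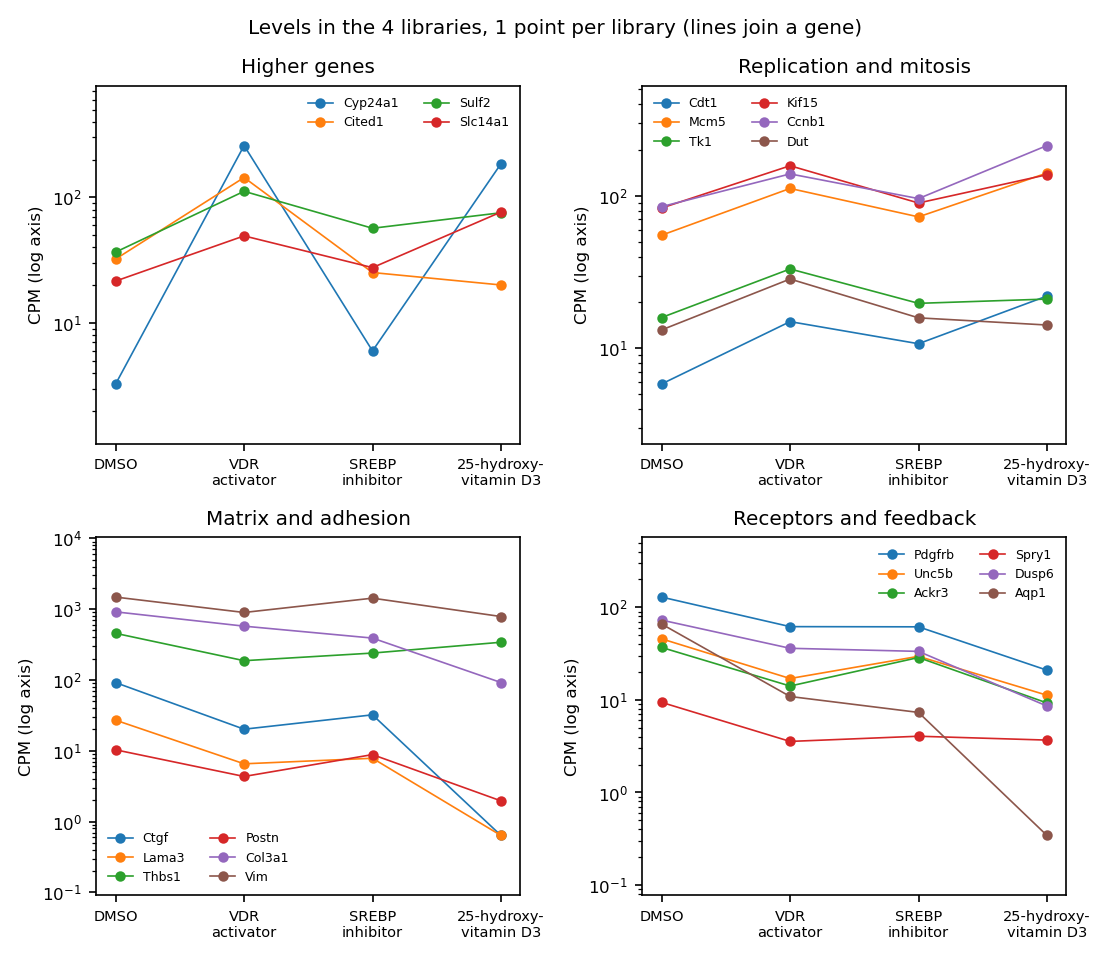
CPM (log axis) of selected genes in the 4 libraries, 1 point per library with lines joining a gene. Cyp24a1, Cited1 and Sulf2 peak under the VDR activator, replication and mitosis genes lie lowest in DMSO, and most matrix and receptor genes lie below DMSO under the activator and lower again under 25-hydroxyvitamin D3, with Thbs1 and Spry1 as exceptions.

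Lists of pathways known to regulate matrix genes had medians nearer to 0. Of 29 tested targets and regulators of YAP and TEAD, 20 were lower and Ctgf alone passed 1.5-fold, with a median of -0.10. Of 30 tested genes of SRF and the actin cytoskeleton 25 were lower, with a median of -0.15, and 1 passed 1.5-fold. That gene, Filip1l, was at 43.9 CPM in DMSO and 27.7 under the activator. In the TGF-beta and BMP pathway 29 of 38 tested genes were lower (24 of 38 with another scaling), with a median of -0.11, and 4 passed 1.5-fold on the lower side and 1 on the higher. The lower ones included Ltbp1, which binds latent TGF-beta, at -0.65, named after its value was seen. Tgfbr2, the type II receptor of TGF-beta, was at 393 CPM in DMSO, 243 under the activator, 246 under the SREBP inhibitor and 91.3 under 25-hydroxyvitamin D3. The activin chain gene Inhbb was at 20.1 CPM in DMSO and 11.7 under the activator, while Fst, whose product follistatin binds activin, was at 5.94 and 10.5 CPM. Id2, a target of BMP signals, was at 8.61 and 4.62 CPM.

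Several receptors of growth and guidance cues were lower. Of 30 tested growth factors and receptor tyrosine kinases 21 were lower and 3 passed 1.5-fold, with Vegfa the 1 member past 1.5-fold on the higher side. Pdgfrb, the PDGF receptor of mesenchymal cells, was at 129 CPM in DMSO, 61.9 under the activator, 61.6 under the SREBP inhibitor and 20.95 under 25-hydroxyvitamin D3, 2.09-fold below DMSO under the activator (1.96 to 2.22). Kitlg, the ligand of Kit, was at 143, 91.8, 68.4 and 13.3 CPM in that order. Figf, the vascular growth factor also called Vegfd, was at 4.38 CPM in DMSO and 2.58 under the activator. Pdgfrb and Kitlg were highest in DMSO and lowest under 25-hydroxyvitamin D3.

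Unc5b, a netrin receptor, was at 45.6 CPM in DMSO, 17.0 under the activator, 29.6 under the SREBP inhibitor and 11.2 under 25-hydroxyvitamin D3, 2.68-fold below DMSO (2.39 to 3.01). It was the 1 gene past 2-fold among 26 tested genes of axon guidance, whose median was -0.13, and Plxna4, a semaphorin receptor, was at 9.63 and 5.61 CPM. Hes1, a repressor switched on by Notch, was at 11.3 CPM in DMSO, 4.05 under the activator, 9.09 under the SREBP inhibitor and 6.43 under 25-hydroxyvitamin D3. The activator gave its lowest level of the 4, and none of the other 14 tested Notch pathway genes passed 1.5-fold. In the Wnt pathway 12 of 22 tested genes were higher, and the only gene past 1.5-fold was the secreted Wnt modulator Dkk3, at 222 CPM in DMSO and 139.8 under the activator.

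Some feedback inhibitors of the ERK pathway were lower in the activator library. Of 20 tested DUSP phosphatases, Sprouty proteins and ETS factors that ERK induces, 15 were lower and 4 passed 1.5-fold, with a median of -0.24. Spry1 was at 9.40 CPM in DMSO, 3.56 under the activator, 4.05 under the SREBP inhibitor and 3.68 under 25-hydroxyvitamin D3, so the 3 treated libraries lay together. Dusp6, the phosphatase most specific for ERK, was at 72.8, 36.1, 33.4 and 8.59 CPM in that order. Its CPM ratio was 2.02-fold below DMSO under the activator (1.86 to 2.19). On the log2(CPM + 1) scale its difference of -0.992 stayed within the 2-fold limit. Spry2 was at 58.8 CPM in DMSO and 31.9 under the activator, and the ETS factor Etv1 at 83.4 and 54.1 CPM. The 5 higher members, given after their values were seen, were Dusp1 at 0.46, Dusp5 at 0.26, Dusp16 at 0.18, Dusp8 at 0.12 and Spred2 at 0.01 (below 0 with upper-quartile scaling), none past 1.5-fold.

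Immediate early transcription factors, which answer stimuli within minutes, went both ways. Of 22 tested, 10 were higher and 12 lower, with 3 past 1.5-fold on the higher side and 2 on the lower. Junb, an AP-1 subunit, was at 20.1 CPM in DMSO, 46.2 under the activator, 33.4 under the SREBP inhibitor and 159.6 under 25-hydroxyvitamin D3, 2.30-fold above DMSO under the activator (2.06 to 2.57). Its partners Fos and Jun had log2 differences of 0.18 and 0.15, given here after they were seen. Atf3, a stress-induced factor, was at 1.29, 3.27, 8.92 and 48.0 CPM. Nr4a1, an orphan nuclear receptor, was on the lower side, at 17.0 CPM in DMSO, 6.42 under the activator, 5.90 under the SREBP inhibitor and 3.97 under 25-hydroxyvitamin D3.

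Among 29 tested genes of chemokines, cytokines and NF-kB, 14 were higher and 15 lower, and the median of -0.03 turned positive on the authors' FPKM values. Ccl2, the main chemokine of monocytes, was at 18.5 CPM in DMSO, 4.38 under the activator, 8.62 under the SREBP inhibitor and 7.95 under 25-hydroxyvitamin D3. It was lowest of the 4 under the activator, 4.22-fold below DMSO (3.40 to 5.27). Cxcl1, a chemokine of neutrophils, was at 4.56, 10.7, 4.18 and 28.1 CPM, above DMSO under the activator and 25-hydroxyvitamin D3 and slightly below it under the SREBP inhibitor. Ackr3, a receptor that removes Cxcl12, was at 36.9, 14.1, 28.7 and 9.27 CPM, and Nfkbiz, an atypical NF-kB inhibitor protein, at 18.7 CPM in DMSO and 9.62 under the activator. The core NF-kB subunit genes Rela, Nfkb1 and Rel lay between 0.02 and 0.05, values picked after they were seen. Nod2, a sensor of bacterial cell wall fragments outside the lists, was at 66.0, 30.9, 19.0 and 2.31 CPM.

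Other lower genes past 2-fold encode channels, transporters and structural proteins. Aqp1, a water channel, had the largest difference on the lower side, at 65.9 CPM in DMSO, 10.9 under the activator, 7.32 under the SREBP inhibitor and 0.343 under 25-hydroxyvitamin D3. It was 6.06-fold below DMSO (5.31 to 6.93), and none of the other 12 tested aquaporins and solute channels passed 1.5-fold. Arnt2, a partner protein of bHLH-PAS transcription factors, was at 28.1, 9.53, 17.4 and 1.23 CPM. Scn7a, a sodium channel, was at 30.5, 13.3, 8.75 and 0.834 CPM, and Abca9, an ABC transporter, at 28.7, 12.9, 10.2 and 0.491 CPM. All 4 had their highest level in DMSO and their lowest under 25-hydroxyvitamin D3.

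Murc, the muscle cavin of caveolae, was at 55.2 CPM in DMSO, 24.5 under the activator, 27.2 under the SREBP inhibitor and 12.1 under 25-hydroxyvitamin D3. Nav1, which binds microtubule ends, was at 71.1, 31.5, 39.0 and 15.995 CPM. Both kept the order seen for Aqp1 except that the activator lay below the SREBP inhibitor. Fam43a was at 60.4 and 28.6 CPM in DMSO and under the activator, Plekha6 at 15.8 and 6.75, Jup, the junction protein plakoglobin, at 5.67 and 1.72, and Lrrc15, a membrane protein with leucine-rich repeats, at 5.16 and 1.76. Dhrs9, a retinol dehydrogenase, was at 18.9 and 8.51 CPM. Mrgprf, an orphan receptor, at 3.13 and 0.900 CPM, and the deacetylase gene Hdac9, at 1.75 and 0.327 CPM, lay near the lowest levels tested. Of the 37 genes past 2-fold on the lower side, 6 had their lowest level of the 4 under the activator. They were picked for a low level in that library, so this count too is description only.

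Sterol and fatty acid synthesis genes, the targets of SREBP, stayed near DMSO. All 21 tested cholesterol synthesis genes were within 1.5-fold of DMSO, 18 lower and 3 higher, with differences from -0.28 to 0.10. All 21 were higher under the activator than under the SREBP inhibitor. The member farthest from DMSO was Ebp, the sterol isomerase, at 299 CPM in DMSO, 247 under the activator, 54.2 under the SREBP inhibitor and 31.9 under 25-hydroxyvitamin D3. The HMG-CoA synthase gene Hmgcs1 was 1.11-fold below DMSO under the activator (1.09 to 1.12). Npc2, which carries cholesterol out of lysosomes, was at 505 and 415 CPM in DMSO and under the activator. None of 17 tested genes of sterol uptake and feedback and none of 19 of fatty acid and NADPH synthesis passed 1.5-fold. In the fatty acid list Acsl3, an acyl-CoA synthetase, was farthest from DMSO, at 212 and 154 CPM.

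Lipid handling outside synthesis had a few lower members. Lpl, the lipoprotein lipase and the 1 gene past 1.5-fold among 10 tested LXR targets, was at 247 CPM in DMSO, 131 under the activator, 778 under the SREBP inhibitor and 209.8 under 25-hydroxyvitamin D3. The activator and the SREBP inhibitor thus lay on opposite sides of DMSO. Cd36, a fatty acid and scavenger receptor, was at 11.2, 5.03, 9.05 and 3.19 CPM. Pparg, the nuclear receptor of fat storage, was at 159, 103, 199 and 123 CPM, below DMSO under the activator and above it under the SREBP inhibitor. Of 26 tested genes of lipid droplets and fatty acid oxidation these 2 alone passed 1.5-fold.

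Ribosome genes were higher by small amounts throughout. All 33 tested ribosome biogenesis genes were higher under each scaling, 2 past 1.5-fold, with a median of 0.35. Nop56, a core protein of box C/D particles, was at 48.1 CPM in DMSO, 80.6 under the activator, 154 under the SREBP inhibitor and 279 under 25-hydroxyvitamin D3. Rrp9, which binds the U3 particle, was at 14.6, 24.9, 56.3 and 149 CPM. All 33 biogenesis genes were lower under the activator than in either other treated library. All 32 tested ribosomal protein genes were higher (31 under another scaling), none past 1.5-fold, with a median of 0.21, and Rps2 was farthest at 1035 and 1405 CPM.

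In the integrated stress response, which ATF4 runs, 23 genes were tested, of which 17 were higher and 4 passed 1.5-fold, with a median of 0.20, and 21 lay below their level under the SREBP inhibitor. Stc2, a secreted glycoprotein, was at 3.04 CPM in DMSO, 6.63 under the activator, 46.4 under the SREBP inhibitor and 152 under 25-hydroxyvitamin D3. Psat1, an enzyme of serine synthesis, was at 119, 185, 246 and 423 CPM. Both lay nearer to DMSO under the activator than in the other treated libraries. Vldlr, a lipoprotein receptor in the same list, was lower, at 143 CPM in DMSO and 87.9 under the activator. No ER chaperone or ERAD gene among 24 tested and no NRF2 target among 22 passed 1.5-fold, and the farthest members were Dnajc3 at -0.32 and the glutathione reductase gene Gsr at 0.48.

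Of 31 tested hypoxia and glycolysis genes 20 were higher, with Vegfa past 1.5-fold on the higher side and Arnt2 and Ndrg1 on the lower. Ndrg1, a gene induced by low oxygen, was at 54.6 CPM in DMSO, 28.6 under the activator, 26.7 under the SREBP inhibitor and 23.4 under 25-hydroxyvitamin D3. Of 18 tested p53 targets 12 were lower and 2 passed 1.5-fold. Plk2, a polo-like kinase, was at 51.4 CPM in DMSO and 29.1 under the activator, but at 71.1 under the SREBP inhibitor and 328 under 25-hydroxyvitamin D3. Eda2r, a death receptor of the TNF family, was at 1.47 and 0.573 CPM in DMSO and under the activator, levels of few counts. The activator library was thus on the opposite side of DMSO from both other treated libraries for Plk2.

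All 13 mitochondrial-encoded mRNAs were lower under each scaling, with a median of -0.21 and none past 1.5-fold. ND2, a subunit of complex I, was farthest, at 5052 CPM in DMSO, 3951 under the activator, 3540.3 under the SREBP inhibitor and 477 under 25-hydroxyvitamin D3. Of 26 tested lysosome and autophagy genes 24 were lower, none past 1.5-fold, with a median of -0.14. Of 25 widely used reference genes 17 were higher, with a median of 0.11. The transferrin receptor gene Tfrc alone passed 1.5-fold, at 93.3 CPM in DMSO, 159 under the activator, 109 under the SREBP inhibitor and 64.9 under 25-hydroxyvitamin D3. Among 7 tested markers of other lineages the steroidogenic gene Star was at 9.72, 5.65, 3.45 and 1.72 CPM. The liver gene Alb was at 1.47 and 0.573 CPM in DMSO and under the activator, levels of few counts. The part of the mitochondrial share and of these markers in the differences above was not tested.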

How the data were processed

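Per the labels' protocols, poly(A) RNA was turned into libraries using the TruSeq Standard mRNA kit. The authors deposited estimated counts per gene, of which 15.8 to 16.8% per library were not whole (tolerance 1e-06), and FPKM values, which scale the deposited counts for gene length and library total. Per the submitters' processing notes, bcl2fastq (version 1) and TopHat2 (version 2) were among the tools. For the counting tool, its use of strand, the genome build and the annotation, the entry is: not given in the sources used here. No coordinates are therefore printed. Rows of 1 gene on several loci (479 genes) were summed, which took 21266 rows to 20754 genes, and estimated counts were rounded to whole numbers. Overlapping, antisense or near-identical genes may share reads.

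Library sizes were adjusted with TMM over the 4 libraries in edgeR 4.0.16 (R 4.3.3), and differences are of log2(CPM + 1), which understates the change of low genes. Tables were handled in Python 3.11.15 with scipy 1.17.1. With 1 library per group no model was fitted and no p-value is given. Ratios are of CPM without the added 1, so a ratio can pass 2 while the difference stays within the 2-fold limit. Ratios carry exact Clopper-Pearson intervals (95%), which compare libraries and cover counting error only, since reads without molecular identifiers are not independent molecules. Limits of 2-fold and 1.5-fold on the log2 scale define higher and lower genes. The procedure was run on simulated Poisson counts that held no spread between cultures. That run cannot show how often unchanged genes pass these limits in real cultures. Other scalings, pseudocounts, filters and FPKM were tried as alternatives.

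Of 1327 members in 45 lists, 1267 had a row, 33 of them found under a LOC identifier by RefSeq name (assembly CriGri-PICRH-1.0, used for names only), and 1001 passed the filter on low values. Members and lists were chosen with earlier results of these data known. Named genes are all those with a symbol past 2-fold, up to 4 of the most different past 1.5-fold per list (or the most different 1), and a few fixed genes. Some genes that this rule names are not reported here. A few others are said to be chosen after their values were seen. The 4 libraries share the DMSO control, so values in the other 2 are set side by side only. Counts of list members by their order among libraries have no share over all tested genes beside them and are description only. Implied gene length is the ratio of count to FPKM. A promoter motif search that had been planned was not run.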

Additional observations from a re-analysis of the deposited data

How the results depend on the processing

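Of the 152 genes that the naming rule gives, 0 turned their sign in any setting in which they passed the filter. The rule picks genes mostly for the size of their difference. The median over all tested genes ran only from -0.013 (upper quartile) to 0.051 (FPKM) over the settings. This left little room for a change of sign in advance, so the count is description only. Of 31 further genes picked after their values were seen, Nfkb1, Orc4 and Spred2, all near 0, took the other sign with upper-quartile scaling. So did the list medians of vitamin D metabolism and receptor partners (upper-quartile scaling) and of chemokines, cytokines and NF-kB (FPKM). The counts of 2-fold and 1.5-fold genes stayed within 1.5 times under TMM on the 2 libraries, DESeq2 1.42.0 size factors, total-count and upper-quartile scaling, no low-value filter, a 5 CPM filter and rows kept apart. A pseudocount of 0.1 CPM gave 45 genes 2-fold higher, 86 lower and 355 lower at the 1.5-fold limit. With 5 CPM as pseudocount these were 5 and 14, with 158 and 116 past 1.5-fold, and a Cyp24a1 difference of 4.99. The authors' FPKM, with the filter and pseudocount also in FPKM, gave 21 genes 2-fold lower, 121 at least 1.5-fold lower and a Cyp24a1 difference of 5.24. A filter of 10 CPM, added after seeing the data, left 141 genes at least 1.5-fold lower. The cause of the FPKM shift was not tested. No paired analysis was possible because each group has 1 library, and no library could be left out for the same reason. Depth limits genes near 1 CPM, such as Spp1, Mmp13, Col5a3 and Hdac9, while replicate cultures are lacking at every level.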

Other observations

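Further gene groups were chosen after the data were seen, so their directions lend no support to the differences above. All 14 condensin and cohesin genes were higher under the VDR activator, 5 past 1.5-fold, with a median log2 difference of 0.43 against 0.01 over all genes. Ncapd2, a condensin subunit, was at 110 CPM in DMSO, 186 under the activator, 101.0 under the SREBP inhibitor and 164 under 25-hydroxyvitamin D3. Ncaph, its kleisin partner, was at 49.7, 84.1, 48.6 and 60.1 CPM, and Esco2, which acetylates cohesin, at 38.7, 65.1, 29.8 and 45.1 CPM. In these 3 genes the activator library was highest and the SREBP inhibitor library lay below DMSO. Of 16 genes of nuclear transport and the lamina 15 were higher, with a median of 0.45. Lmnb1, lamin B1, was at 41.5, 72.8, 57.3 and 68.8 CPM, and the importin gene Kpna2 was at 119.9 CPM in DMSO and 192 under the activator. Ran, the GTPase of nuclear transport, was at 152, 236, 298 and 509 CPM.

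All 9 tested genes of caveolae were lower, 3 past 1.5-fold, with a median of -0.46. Cav1, the main caveolin, was at 1430 CPM in DMSO, 784 under the activator, 947 under the SREBP inhibitor and 538 under 25-hydroxyvitamin D3, a ratio of 1.82 to DMSO under the activator (1.79 to 1.86). Ehd3, a membrane-shaping ATPase, was at 80.8 and 49.8 CPM. Of 12 tensin and focal adhesion genes 11 were lower, with a median of -0.16. Tns3 was at 240.1 CPM in DMSO and 148 under the activator, and Tns1 at 375 and 246 CPM.

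Of the genes whose row bears a LOC identifier, 6 were past 2-fold higher and 11 lower. The higher ones include Cyp24a1 and Myc and the lower ones Ccl2, all 3 described above by symbol. The LOC genes named below were chosen after their values were seen. LOC103160377, described as late cornified envelope protein 1B-like, had 0 counts in DMSO and 44 under the activator. Against an assumed floor of 3 counts per library it was 13.0-fold higher, a value that is not a lower bound. The lower limit of the counting interval of its ratio was 10.2. LOC103160377 was at 1.80 CPM under the activator, 2.28 under the SREBP inhibitor and 0 under 25-hydroxyvitamin D3. LOC107980304, described as similar to a coiled-coil domain protein, was at 2.86, 7.73, 2.67 and 2.699 CPM in DMSO, the activator, the SREBP inhibitor and 25-hydroxyvitamin D3, above DMSO in the activator library alone. LOC100761692 and LOC100761404, both described as C-type lectin family 2 members, were lower, at 64.03 and 20.5 CPM and at 12.4 and 4.05 CPM in DMSO and under the activator. The counts were not checked for reads shared by these related genes. LOC100757262, described as an aldose reductase-related protein, was at 79.7, 34.5, 39.4 and 0.932 CPM in the 4 libraries.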
